A study of Mus musculus with 11 samples.

Results

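The barcodes described here are the 606 that were listed with 10 or more reads in at least 6 of 11 mouse lungs, out of 52268 barcodes that reached 10 reads in at least 1 lung and 105528 that were listed at all. They were 1.16% of the barcodes with 10 or more reads and held 16.3% of all barcode reads. The read counts themselves chose them, so their recurrence and their reads in these lungs are given as a description. Except in 1 alternative named below, sizes, detection and shares of reads were tested only in lungs that took no part in the choice. The tests of single barcodes could not be separated from it in this way and are marked where they appear. A barcode with 10 or more reads in a library is called found in that lung, and a barcode found in a lung is called a colony of that lung. A barcode found in 6 or more lungs is called recurring.

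The lungs came from 129/Bl6 F1 mice that were pre-treated with vehicle (6 lungs) or 6-OHDA (5 lungs) and then received a pool of barcoded pancreatic ductal adenocarcinoma (PDAC) cell lines into a vein. Mice of both groups got the same syngeneic pool, and lungs with metastases were collected 3 weeks later. 6-OHDA, 6-hydroxydopamine, is a toxin that destroys sympathetic nerve endings, and the comparison asks how loss of these nerves bears on metastasis in the lung. The labels give no age, sex or dose that was used here, and nothing in them says that each library is a separate mouse. A p-value here reads only the spread among the 11 libraries, part of which may be technical.

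In such a pool each tumour cell is tagged with a short random sequence in its genome, and all descendants of the tagged cell carry it. A cell that takes up more than one copy of the cassette carries more than one barcode. When a tagged cell divides before injection, its barcode can enter several mice, so the same barcode can be seen in lungs that never exchanged cells. A barcode in many lungs can therefore stand for a clone that was injected into several mice. The pool before injection was not analysed here, so the number of cells that carried each barcode is not known.

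Each barcode has 20 bases. The 4 leading bases, in capitals here, were read as the identifier of a cell line, an inference from the order of the cassette's parts in the labels, and the line names were not used. The next 16 bases, in lower case, hold 12 random positions interrupted by a fixed g after every 3. The first set below was found in 10 or 11 lungs, and the second holds the largest recurring barcodes and the largest of the line CCTT. The letters A to P only serve to name them.
Barcode A: GTTGgtggtgggtccgaggg
Barcode B: GGTTcgtgttcgaccgatgg
Barcode C: GCTAtgggtgtgcggggggg
Barcode D: GTTGtgggattgctggatag
Barcode E: GTTGtatgttcgtaagatgg
Barcode F: GTTGggtgtaaggtaggagg
Barcode G: AACCttggaaggactgtctg
Barcode H: GTTGcttgaaagctcgcgag
Barcode I: GTTGgtagagtgatcgttgg
Barcode J: ATCGaatgtctgtaagcttg
Barcode K: AACCcctggttgataggttg
Barcode L: AACCagcgtccgatagcttg
Barcode M: AACCcgagtaggggggaggg
Barcode N: AACCagggcgtgccagggcg
Barcode O: AACCggtggccgtttgattg
Barcode P: CCTTtgagtgaggaggtgtg

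Library depth ranged from 6436469 to 15665492 reads. Sizes are given in RPM, a barcode's reads for every 1000000 reads of its library, which scales out depth but not the total tumour mass of the lung. A count of 10 reads corresponded to 0.638 to 1.55 RPM, and 0 reads allowed a level of up to 0.192 to 0.466 RPM (3 reads of the library total). The number of colonies differed widely and bears on every count below. Vehicle lungs 1, 2, 5 and 6 held 1965 to 3604 colonies, vehicle lungs 3 and 4 held 9099 and 9335, and the 6-OHDA lungs 5913 to 12964.

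The recurring barcodes came from few lines. The line GTTG gave 279 of the 606 (46.0%), AACC 151 (24.9%), CCTT 79 (13.04%), GGTT 41 (6.77%) and ATCG 11 (1.82%). Another 14 identifiers gave the remaining 45, with 1 to 9 each. GTTG and AACC together made up 71.0% of the recurring barcodes and 94.0% of their reads.

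This order was not the order of the lines by size. AACC had 7840 barcodes found in at least 1 lung, against 3762 for GTTG, yet 7.42% of the GTTG barcodes recurred (Wilson 95% interval 6.62 to 8.30%) and 1.93% of the AACC barcodes (1.64 to 2.25%). CCTT, with 6783 barcodes found, had 1.16% recurring (0.936 to 1.45%). GGTT was a small line by reads, with 0.734% of all reads, and 4.39% of its 933 barcodes recurred (3.26 to 5.91%). In the smallest well-marked case, GCTA, 6 of only 45 barcodes recurred (13.3%, 6.26 to 26.2%), and these held 64.9% of the reads of that identifier. These intervals cover counting error only.

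Several large lines had no recurring barcode or almost none. Of 22 identifiers with 500 or more barcodes found, 8 had none. ACGA had 0 of 3674, which allows a share of up to 0.0817% when 3 barcodes are taken as the limit of a count of 0, and 0.104% by the Wilson 95% interval used above. CTGT had 0 of 2036, up to 0.147% and 0.188% by the same limits. TTCC had 4 of 2765 and GGAA 2 of 2726. AGGT, with 3.95% of all reads and 2823 barcodes found, had 3.

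Recurrence fell off steeply. Of the 606, 320 were found in exactly 6 lungs, 168 in 7, 76 in 8, 30 in 9, 9 in 10 and 3 in all 11, while 597 barcodes just outside the rule were found in exactly 5. Where found, those in exactly 5 lungs had a median of 63.6 RPM and those in exactly 6 a median of 89.8 RPM. GTTG made up 38.7% of the first and 43.1% of the second. The 3 barcodes in all 11 lungs belonged to 3 different identifiers, GTTG, GGTT and GCTA.

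Which lungs held the recurring barcodes followed the number of colonies. Vehicle lungs 1, 2, 5 and 6 held 157, 255, 134 and 228 of the 606, and vehicle lungs 3 and 4 held 472 and 471. In the 6-OHDA lungs 1 to 5 the numbers were 537, 448, 503, 361 and 531. All 5 of these lay above vehicle lungs 1, 2, 5 and 6, and vehicle lungs 3 and 4 lay among them.
With only 5 lungs in the 6-OHDA group, the rule asks every recurring barcode to be found in at least 1 vehicle lung. All 5 6-OHDA lungs held 161 of the barcodes (26.6%), of which 38 were found in a single vehicle lung besides. All 6 vehicle lungs held 6 (0.990%). The pair of vehicle lungs 3 and 4 shared 361 (59.6%). Recurring barcodes were 4.14 to 7.31% of the colonies of a lung.

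Recurring barcodes were large for their line. To keep the choice apart from the measurement, the members for each lung were chosen again as the barcodes found in 6 or more of the other 10 lungs, and their size was read in the lung left out, against all other colonies of the same line there. The members' median lay 2.71-fold above the other colonies of their line (mean log2 difference 1.44, SD 0.42, n = 11 lungs). It was above in 11 of 11 lungs, from 1.46-fold in vehicle lung 5 to 4.22-fold in 6-OHDA lung 5 (exact sign-flip permutation test, two-sided p = 0.000977, the smallest that 2048 sign flips can give). Only members with 10 or more reads in the lung enter this value, so members that were not found there do not count. Members that enter it are thus found in 7 or more lungs in all. The 320 recurring barcodes found in exactly 6 lungs count among the other colonies. With 5 of the other lungs asked, which moves them to the members, the mean log2 difference was 1.22.

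The difference held in each of the 4 most numerous lines. On average over lungs, the members' median was higher by 2.72-fold in AACC (11 of 11 lungs), 2.88-fold in GTTG (11 of 11), 2.47-fold in CCTT (10 of 11) and 3.51-fold in GGTT (10 of 11), each with an adjusted exact sign-flip permutation p of 0.00244 over 5 lines. In ATCG, measurable in 8 lungs, it was 1.88-fold with 6 of 8 above, which did not pass (adjusted exact permutation p = 0.234). Levels show the scale. In vehicle lung 1 the held-out members of AACC had a median of 1088 RPM against 322 RPM for the other AACC colonies, and those of GTTG 181 against 81.4 RPM. In 6-OHDA lung 5 the medians were 141 against 49.7 RPM in AACC and 297 against 69.6 RPM in GTTG. Exceptions were CCTT in vehicle lung 5 (35.7 against 42.9 RPM) and GGTT in vehicle lung 2 (20.5 against 23.9 RPM).

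Over all lines together, relative size rose step by step with the number of other lungs that held the barcode. Relative to the median colony of its line and lung, a barcode found nowhere else stood at 0.871-fold (38527 listings), one found in 3 other lungs at 1.34-fold (4976 listings), in 6 at 2.31-fold (1176), in 8 at 4.60-fold (270), in 9 at 6.99-fold (90) and in 10 at 15.0-fold (33). The last value rests on the 3 barcodes of all 11 lungs. In AACC the median went from 52.0 RPM for barcodes found in no other lung to 271 RPM for those found in 6 to 10 others, in GTTG from 47.0 to 242 RPM, in CCTT from 10.2 to 36.5 RPM and in GGTT from 6.41 to 34.7 RPM. ATCG did not rise at every step, with medians of 4.02, 5.31, 3.38 and 7.80 RPM for barcodes found in 0, in 1 or 2, in 3 to 5 and in 6 to 10 other lungs. These are descriptions over listings, which are not independent of one another, and no test was made of the trend.

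Of the 6 recurring barcodes with the highest mean RPM, 5 were found in 6 or 7 lungs and 1, barcode D, in 10. Barcode A of GTTG, found in all 11 lungs, had 5036, 1278, 1081, 1333, 461 and 397 RPM in vehicle lungs 1 to 6 and 69.8, 213, 5786, 357 and 145 RPM in 6-OHDA lungs 1 to 5. It was high in one lung of each group, and the groups overlapped over most of their range (1598 ± 1732 RPM in vehicle, SD, n = 6, and 1314 ± 2502 RPM in 6-OHDA, SD, n = 5).
Barcode B of GGTT, the largest recurring barcode of its line, had 55.8, 806, 127, 971, 46.9 and 607 RPM in vehicle and 143, 315, 266, 738 and 51.6 RPM in 6-OHDA. Its range was the narrowest of the 3 barcodes found everywhere, at 20.7-fold, and even in vehicle lung 4, where it was highest, it ranked 201 among all barcodes.
Barcode C of GCTA had 205, 2.36, 538, 540, 2.02 and 79.9 RPM in vehicle and 431, 142, 101, 291 and 196 RPM in 6-OHDA. It was close to the read minimum in vehicle lungs 2 and 5.
Barcode F of GTTG was present in all 5 6-OHDA lungs within a narrow range, at 1148, 1666, 1292, 1235 and 2046 RPM. In vehicle it had 0, 71.5, 345, 2018, 1.86 and 1132 RPM, so vehicle lung 4 reached the upper end of the 6-OHDA range and vehicle lung 5 lay near the read minimum. Barcode E had 5110, 2821, 696, 660, 503 and 0 RPM in vehicle and 449, 68.0, 1260, 1383 and 1752 RPM in 6-OHDA.
The others listed above from 10 lungs also missed a vehicle lung rather than a 6-OHDA lung. Barcode G of AACC had 1 read in vehicle lung 1 and 24.3 to 2247 RPM elsewhere. Barcode H of GTTG had 0 reads in vehicle lung 2, 10 reads in vehicle lung 1 and up to 2607 RPM, in 6-OHDA lung 4. Barcode I of GTTG and barcode J of ATCG had 0 reads in vehicle lung 5, and were highest at 997 RPM in 6-OHDA lung 2 and at 1234 RPM in 6-OHDA lung 1. Vehicle lung 5 had the fewest colonies of all.

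For the largest members, most of the RPM summed over lungs came from a single lung. Barcode K of AACC, with the highest mean over the 11 lungs (2892 RPM), had 22092 RPM in vehicle lung 5, where it was the second largest barcode of all, and 0, 3917, 0, 0 and 1560 RPM in vehicle lungs 1, 2, 3, 4 and 6. In the 6-OHDA lungs it had 26.3, 2010, 922, 0.523 and 1283 RPM.
Barcode M, also of AACC, was the largest barcode of vehicle lung 1, at 21843 RPM, while vehicle lungs 5 and 6 and 6-OHDA lungs 2 and 4 listed no read of it. Barcodes L and N were also highest in vehicle lung 5, at 19085 and 17762 RPM. Barcode O was highest in 6-OHDA lung 2, at 12749 RPM, and had no reads in 5 lungs.
Barcode D, the largest recurring barcode of GTTG, had 14345 RPM in vehicle lung 1, 2548 in lung 6, 608 in lung 3 and 94.0 in lung 5, against 2.54 in lung 4 and 0 in lung 2. Its 6-OHDA levels were 301, 547, 980, 5.96 and 940 RPM. Barcode P of CCTT reached 864, 839 and 1224 RPM in vehicle lungs 1, 3 and 6 and at most 83.3 RPM in the 6-OHDA group, with 0 reads in vehicle lungs 2 and 5 and 6-OHDA lung 4.

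A barcode's size in one lung was a poor guide to its size in another. Between the lungs where it was found, the highest level of a recurring barcode was a median of 77.0-fold above its lowest, and the quartiles of this range were 26.6- and 250-fold. It stayed within 10-fold for 53 of the 606 (8.75%) and reached 1000-fold or more for another 53. The range was wider in AACC (median 164-fold, 31 of 151 at 1000-fold or more) than in GTTG (66.7-fold, 20 of 279) or CCTT (59.8-fold, 0 of 79). Levels below the read minimum do not count, so barcodes with low levels have less room for a wide range. The members' mean RPM had a median of 346 in AACC, 215 in GTTG and 32.8 in CCTT, and its part in the ranges was not tested. The narrowest range among all was 2.37-fold, in GTTGgtagtgtgttgggcag.
Sizes were compared between each 2 lungs over the members found in both, as log2 RPM minus the median of the line in that lung. Spearman's rho ranged from -0.062 to 0.277 over the 55 pairs of lungs, with a median of 0.129, and lay above 0 in 50 of them, over 43 to 473 shared barcodes. Without removing the line medians it ranged from 0.054 to 0.464, with a median of 0.292. These are correlations across barcodes, which share a library and its depth on each side, and barcodes below the read minimum are missing from them.

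The spread of a barcode between lungs was nearly as wide as that between barcodes within a lung. On the log2 scale, after removing line medians, the median SD of one barcode over its lungs was 2.21, and the median SD over the recurring barcodes of one lung was 2.53. In an analysis of variance, 9.92% of the variance lay between barcodes, 10.6% within GTTG and 4.06% within AACC. Mean rho was 0.126 over the 25 pairs of lungs with the same treatment and 0.112 over the 30 pairs with different treatment, a difference of 0.014. The same lungs chose the barcodes, so these means are a description.

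Against this weak agreement, some barcodes of one line moved together in every lung. They were picked after their values were seen, by asking for 2 recurring barcodes that were found together in 6 or more lungs, had reads wherever the other was found, and kept a ratio with an SD below 0.5 on the log2 scale. Of 2770 pairs of recurring barcodes with such shared presence, 7 met the limit. All 7 paired barcodes of the same line, 6 in GTTG and 1 in CCTT, whereas 44.0% of the 2770 did. The next pair in order had an SD of 0.588, and the median SD was 3.11. The 14 barcodes are shown so that their sequences can be set side by side.
Pair 1, member 1: GTTGcatgcaagttcgaatg
Pair 1, member 2: GTTGcatgcaagttcgagtg
Pair 2, member 1: GTTGggtgcttgaggggccg
Pair 2, member 2: GTTGtgagatggattgggtg
Pair 3, member 1: GTTGaccgaagggcggggtg
Pair 3, member 2: GTTGcgagtgaggaagggtg
Pair 4, member 1: GTTGacagaatgcacgccgg
Pair 4, member 2: GTTGttagtcggttggccgg
Pair 5, member 1: GTTGatagttagatcgtggg
Pair 5, member 2: GTTGgtggtctggtcggcgg
Pair 6, member 1: CCTTgtggtgagacggattg
Pair 6, member 2: CCTTttgggaggagggaacg
Pair 7, member 1: GTTGcctgctggaggggttg
Pair 7, member 2: GTTGgaaggtagaaaggggg

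Pair 1 differs by 1 base, A18G counted from the 5′ end of the barcode with member 1 first. Member 1 had 1668 and 511 reads in vehicle lungs 3 and 4 and 1172, 571, 544 and 500 in 6-OHDA lungs 1, 2, 3 and 5. Member 2 had 1573, 409, 1202, 550, 504 and 566 reads in the same lungs. Both had 0 reads in the other 5 lungs, and the ratio of their reads stayed between 0.883 and 1.25.
In pair 2 the reads of member 1 were lower than those of member 2 throughout, by 1.99-fold on average, at 746 against 1571, 401 against 821 and 255 against 502 in vehicle lungs 3, 4 and 6, and 502 against 1083, 195 against 343 and 184 against 360 in 6-OHDA lungs 1, 2 and 5. Their ratio had the narrowest SD of all, 0.10 on the log2 scale, although 8 of their 20 bases differ.
Pairs 3, 4, 5 and 6 lay near equality, with mean ratios of 1.005- to 1.03-fold and 7 or 8 bases different. Pair 4 spanned 697 to 11758 reads of member 2 within the vehicle group, and member 1 followed with 767 and 11614. In pair 7 member 2 was 2.30-fold higher on average, over 7 lungs.
Taking the 7 pairs over the 11 lungs each, both barcodes were found in 44 cases, both had 0 reads in 33, and only 1 of them had reads in 0. With barcodes found in 5 lungs allowed as partners, the pairs under the limit rose to 11, of which 2 joined GTTG barcodes to the same CATG barcode. The SD covers only lungs where both were found, and each added pair departed from its ratio in another lung. In vehicle lung 3 the CATG barcode had 3 reads, against 10279 and 1937 for its GTTG partners. Another added pair had 25234 against 2 reads in 6-OHDA lung 5, and the last had 34 against 1 in 6-OHDA lung 3.

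The part of the reads held by recurring barcodes was compared between treatments next. By the rule itself they held 17.2, 12.01, 13.6, 18.1, 16.6 and 12.9% of the reads of vehicle lungs 1 to 6 and 17.1, 19.2, 18.6, 19.7 and 15.7% in 6-OHDA lungs 1 to 5. That is 15.1 ± 2.54% (SD, n = 6) and 18.04 ± 1.61% (SD, n = 5), and the ranges overlapped; counting error was at most 0.029 points either way (Wilson 95% interval). A lung with many colonies helps to choose the members, so this difference is a description, and nothing is read from it.
With members chosen from the other 10 lungs the shares were 10.2 ± 2.80% in vehicle and 10.6 ± 1.05% in 6-OHDA, a difference of 0.341 percentage points (exact permutation test over 462 splits, two-sided p = 0.825). This choice gives fewer members to lungs with many colonies, from 335 in 6-OHDA lung 5 to 560 in vehicle lung 5. With the 300 most recurrent barcodes of the other lungs taken for every lung, an alternative added after seeing the data, the difference was 1.55 points (exact permutation p = 0.143). With 5 of the other 10 lungs asked in place of 6, it was 2.97 points (exact permutation p = 0.0584). A barcode found in the lung then meets the rule over all 11 lungs. This setting therefore repeats the difference by the rule, and nothing is read from it.

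The group means of the held-out share were alike, but single lungs ranged from 6.10 to 13.4% in vehicle and from 8.79 to 11.3% in 6-OHDA. The part of the members that was found differed widely between lungs. Of the held-out members, 18.1, 29.9, 65.3, 64.4, 15.7 and 26.2% were found in vehicle lungs 1 to 6 and 79.8, 59.2, 71.2, 44.2 and 77.6% in 6-OHDA lungs 1 to 5. The widest Wilson 95% interval among the low lungs, that of vehicle lung 2, was 26.1 to 34.1%, and the lowest 6-OHDA lung, lung 4, had 39.6 to 48.9%. Such intervals take the barcodes of a lung as independent, cover counting error only and do not compare the treatments. The means were 36.6 ± 22.5% (SD, n = 6) and 66.4 ± 14.8% (SD, n = 5). The difference of 29.8 points passed the threshold of 0.05 before adjustment (exact permutation test, two-sided p = 0.0390) and not after adjustment over the 3 values compared between treatments (adjusted exact permutation p = 0.117). It missed the unadjusted threshold without vehicle lung 1, 2, 5 or 6 and without 6-OHDA lung 1, 2, 3 or 5, at 24.1 to 31.8 points (exact permutation p of 0.0524 to 0.0857).
The number of all colonies moved with it, as given above, and its part in the result was not tested. Within the vehicle group the lungs with 9099 and 9335 colonies found 65.3 and 64.4% of the members, and the other 4 found 15.7 to 29.9%. The part held by the 10 largest recurring barcodes varied between lungs. They made up 48.6, 35.1, 62.0 and 26.7% of the members' reads in vehicle lungs 1, 2, 5 and 6. In vehicle lungs 3 and 4 they made up 20.7 and 18.1%, and in the 6-OHDA lungs 13.6 to 30.8%.
The size advantage of members within their line did not differ detectably between treatments, at a log2 difference of 1.37 ± 0.44 in vehicle and 1.52 ± 0.42 in 6-OHDA (exact permutation p = 0.584).

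Within lines, GTTG showed the widest contrast. By the rule, recurring barcodes held 68.2, 60.1, 34.4, 33.8, 66.8 and 45.4% of the GTTG reads in vehicle lungs 1 to 6, and 29.2, 34.5, 29.4, 38.7 and 32.1% in 6-OHDA lungs 1 to 5. Vehicle lungs 1, 2, 5 and 6 lay above every 6-OHDA lung, and vehicle lungs 3 and 4 within their range. With held-out members the shares were 39.4 ± 16.7% (SD, n = 6) and 19.8 ± 1.28% (SD, n = 5), and the lowest vehicle lung, at 20.8%, lay inside the 6-OHDA range of 18.6 to 21.4%. The exact permutation p of 0.0216 became 0.108 when adjusted over 5 lines, which did not pass. Without vehicle lung 3 the adjusted exact permutation p was 0.0317, the only 1 of 14 alternatives that passed. That adjustment left out ATCG, which fell below 10 members there, so it covered fewer lines.
The number of GTTG colonies moved with this share. Vehicle lungs 1, 2, 5 and 6 had 126, 240, 77 and 237 GTTG colonies, vehicle lungs 3 and 4 had 999 and 1250, and the 6-OHDA lungs 741 to 1678. Its part in the result was not tested.
The other lines did not pass either. Held-out members held 8.99 ± 3.31% of the AACC reads in vehicle and 8.62 ± 2.76% in 6-OHDA (adjusted exact permutation p = 0.855). In CCTT they held 6.45 ± 2.82% and 4.48 ± 0.800% (adjusted exact permutation p = 0.265). Without vehicle lung 3 the adjusted exact permutation p for CCTT was 0.0476, again adjusted without ATCG and the only 1 of 14 alternatives that passed. In GGTT the shares were 30.2 ± 15.5% and 24.9 ± 5.19% (adjusted exact permutation p = 0.587). In ATCG the shares were 14.3 ± 16.4% and 26.1 ± 13.1% (adjusted exact permutation p = 0.400).

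Each barcode's part of the library was then tested between treatments over the 5236 barcodes found in 3 or more lungs. edgeR's quasi-likelihood test called 0 of the 606 recurring barcodes and 0.0% of all tested at an adjusted p of 0.05. At an unadjusted p under 0.05 it had 1 recurring barcode higher in 6-OHDA, where 11.2% of all tested were higher, and 0 lower, where 2.02% were. In simulated data with the spread of these barcodes, edgeR recovered 0% of the 4-fold and 0% of the 16-fold changes put in, so a count of 0 does not bear on changes of that size. Exact permutation tests per barcode on log2(RPM + 1) gave 82 recurring barcodes higher at an unadjusted p under 0.05 (13.5%, against 5.42% of all tested) and 1 lower (0.165%, against 0.0573%), and 0 after adjustment. These tests, edgeR and DESeq2 included, used the reads of the lungs that chose the members, and the tested set goes down to barcodes found in 3 lungs, so nothing is read from the members' share against that of all tested.
DESeq2 called 5 recurring barcodes, all higher in 6-OHDA (0.825% of the 606, against 12.3% of all 5236 called), and gave 74 of them no adjusted p. They were chosen after their values were seen, all carried the identifier GTTG, and they include the 3 recurring barcodes with the lowest edgeR p. In the order below they were found in 1, 2, 1, 1 and 3 vehicle lungs and in 5, 4, 5, 5 and 5 6-OHDA lungs. They thus met the rule largely through the group where they were higher, and nothing is read from their p-values.
Barcode Q: GTTGtttgttagacagggtg
Barcode R: GTTGatcggttgattgtgtg
Barcode S: GTTGtgtgtttgggcgacgg
Barcode T: GTTGctcgtacgtatgttgg
Barcode U: GTTGcgggaaggcatgtatg

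Barcode Q had 697, 532, 544, 793 and 302 RPM in 6-OHDA lungs 1 to 5, 3.50 RPM in vehicle lung 4 and 0 reads in the other 5 vehicle lungs. The groups did not overlap (edgeR log2 change 9.91, SE 4.89, adjusted p = 0.328; DESeq2 log2 change 10.18, adjusted p = 0.000183).
Barcode R had 179, 355, 415, 0 and 371 RPM in the 6-OHDA lungs, at most 1.19 RPM in any vehicle lung, and 0 reads in vehicle lungs 1, 2, 5 and 6. With no read, 6-OHDA lung 4 lay among the vehicle values (edgeR adjusted p = 0.379, DESeq2 adjusted p = 0.000728). Barcode S had 2.89, 102, 170, 285 and 1351 RPM in 6-OHDA and 10.3 RPM in vehicle lung 4 alone, which was above 6-OHDA lung 1 (edgeR adjusted p = 0.573, DESeq2 adjusted p = 0.0120).
Barcode T had 137, 1328, 1068, 1226 and 175 RPM in 6-OHDA, 52.4 RPM in vehicle lung 6 and 0.124 RPM in vehicle lung 1 (edgeR adjusted p = 0.737, DESeq2 adjusted p = 0.0200). Barcode U had 831, 352, 267, 320 and 64.1 RPM in 6-OHDA and 26.0, 5.67 and 12.6 RPM in vehicle lungs 3, 4 and 6 (edgeR adjusted p = 0.828, DESeq2 adjusted p = 0.0349). For both, every 6-OHDA lung lay above every vehicle lung. The share of all tested barcodes that separated in this way was not counted, so nothing is read from the separation of Q, T and U. GTTG as a whole held 3.93 to 35.3% of the reads of vehicle lungs and 22.8 to 35.4% in 6-OHDA lungs.

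The sign of the fitted change was not the same in all lines. Of the GTTG recurring barcodes 206 of 279 had a fitted log2 change above 0 in edgeR, with a median of 1.06, and the 1354 GTTG barcodes tested had a median of 1.88. In AACC 67 of 151 were above 0, with a median of -0.37, and over all 1301 AACC barcodes tested the median was -0.14. CCTT had 34 of 79 above 0, with a median of -0.17 against -0.42 for all 903 CCTT barcodes tested. GGTT had 17 of 41 above 0, with a median of -0.31, where all 202 GGTT barcodes tested had a median of 0.60, on the other side of 0. Over all lines 359 of the 606 were above 0, with a median of 0.56, and 57.1% of all tested, with a median of 0.63. TMM scaling moved the median of all tested to 1.01 and the recurring barcodes above 0 to 420 of 606, so the number above 0 depends on the scale.

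The random part of recurring barcodes was close in make-up to that of other barcodes. Over the 12 random positions they were 21.6% A, 17.4% C, 29.7% G and 31.3% T, and barcodes found in 1 lung 21.9% A, 18.1% C, 30.4% G and 29.6% T. A run of 5 or more equal bases occurred in 9.90% of the recurring barcodes and 9.81% of the others.
A neighbour of the same line 1 base away was listed for 38 of the 606 (6.27%) and for 2.46% of the barcodes found in 1 lung, but for only 3 recurring barcodes (0.495%) did such a neighbour have more reads, against 1.11%. One of these 3 belongs to pair 1 above. The other two belong to AACC, and their neighbours were found in 1 and 2 lungs. The random part of 66 recurring barcodes (10.9%) was also listed with another identifier, against 1.33% of barcodes found in 1 lung. In none of the 66 was that copy larger, and the median copy had 0.0031% of the reads.
Some of the 4097 listings behind the rule were small beside the same barcode's highest count, and their number depended on the cut. In 46 (1.12%) the reads were below 0.001 of the same barcode's highest count, and without them 587 of the 606 still met the rule. In 362 (8.84%) they were below 0.01, and without those 462 did.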

How the data were processed

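Per the labels' protocols, spike-in cells went into each tissue before DNA extraction, and PCR of the barcode cassette ran for 27 cycles on 32 µg of DNA. The deposited values are raw read counts per barcode cluster, 1 table per library, per the file headers. How reads were clustered is not given in the sources used here. Of 135364 listings, 4 with an undetermined base were dropped. No entry was named as the spike-in, so sizes are parts of a library, not cell numbers, and reads carry no molecular identifiers. Depth was 6436469 to 15665492 reads.

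No 2 libraries were alike (highest correlation 0.123). Members, lines and comparisons were chosen with earlier results of these data known. Members for a tested lung came from the other 10 lungs. For values with 1 number per lung, labels were permuted exactly (two-sided), or signs were flipped, with Benjamini-Hochberg adjustment. Lines with 10 or more members were tested. edgeR 4.0.16 (quasi-likelihood, library totals) was fitted over barcodes with 10 or more reads in 3 or more libraries and adjusted over all of them, with DESeq2 1.42.0 as an alternative. The edgeR standard errors are the log2 change over the square root of F. On simulated data of 5236 barcodes with 200 changed, edgeR called 97.5% of 4-fold changes at a dispersion of 0.2 and 0% at the fitted dispersions (median 19.3). Barcodes named were those in 10 or 11 lungs (10 at most), the 6 with the highest mean RPM, the largest of each line with 10 or more members, and the 3 with the lowest edgeR p. Tests ran in Python 3.11.15 with scipy 1.17.1, and in R 4.3.3.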

Additional observations from a re-analysis of the deposited data

How the results depend on the processing

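The members' size advantage over their line kept its direction and stayed past the threshold in all 19 alternatives run (minima of 3 and 30 reads, thinning, merging, 5 or 8 of the other lungs, members by the rule, 300 barcodes per lung, and each lung left out). Asking for 5 of the other lungs and taking members by the rule compare the same colonies, so they are not separate checks. Leaving out 1 lung gave 1.49 to 1.85 on the log2 scale. These runs still asked for 6 of the other lungs, now fewer, so the choice of members was stricter. The same holds for all sizes, shares and percents found that are given without 1 lung. The number of recurring barcodes was 1203 at 5 or more lungs and 118 at 8 or more, and 335 to 560 without 1 lung, where 6 of 10 were asked. The percent of members found missed the threshold when 8 of the other lungs were asked (30.02 points, exact permutation p = 0.0519), and ranged from 24.1 to 34.5 points without 1 lung.

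The difference in the share of reads rose to 2.97 points when 5 of the other lungs were asked, and to 2.97 points with members by the rule (exact permutation p = 0.0584 in both), the lowest p among the settings run. Both settings count the same colonies, and by the rule the tested lung helps to choose the members, so nothing is read from them. The difference in share turned to -0.129 points with a minimum of 30 reads and to -0.356 points with 8 of the other lungs. Without 1 lung it ranged from -1.32 to 1.09 points. The treatment difference in size advantage turned to -0.18 with a minimum of 30 reads, -0.11 in thinned libraries, -0.089 with 8 of the other lungs and -0.30 with 300 barcodes per lung, and ranged from -0.15 to 0.14 without 1 lung. That in agreement turned to -0.014 with a minimum of 30 reads and ranged from -0.0074 to 0.031. The first 2 of these differences passed the threshold in no setting, and the cause of the turns was not tested. Within lines, leaving out 1 lung gave -2.0 to 1.87 points for AACC, -2.59 to -1.13 for CCTT, -10.2 to -1.35 for GGTT, -21.7 to -11.9 for GTTG and 8.91 to 15.9 for ATCG, and 300 barcodes per lung turned AACC to 1.21 points. ATCG fell below 10 members in thinned libraries and without 6 of the lungs and has no value there.

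edgeR called 0 recurring barcodes under TMM scaling, both other filters and without each lung, and DESeq2 called 5. With the sample number as a replicate block, the percent found differed by 27.7 points (exact sign-flip permutation p = 0.188), the share by 0.151 points and GTTG by -20.3 points. With 5 pairs p cannot go below 0.0625. Whether the numbers pair the samples is not known. Same-numbered samples correlated at -0.038 to 0.019, and 0 of 5 vehicle samples correlated best with its own number. Barcode sizes agreed only weakly between any 2 lungs, so this check could not decide it. edgeR with the block called 0 recurring barcodes. The read minimum limits what can be found in shallow libraries, where 10 reads are up to 1.55 RPM.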
